A study of Homo sapiens with 10 samples.

Results

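The transcriptome of H1944 cells labelled as APEX1 knockouts was compared with that of H1944 cells labelled WT. H1944 is an established human lung adenocarcinoma cell line. The comparison takes the 4 H1944 libraries out of 10 in the series, chosen by their column names and genotype labels. WT 1 and WT 2 are labelled WT, and KO 1 and KO 2 are labelled as APEX1 knockouts. The other 6 libraries come from A549, a second lung adenocarcinoma line, and were not used. All 4 cultures grew in RPMI medium with serum and sodium pyruvate, and no drug, dose or time course is part of the design. The labels name neither the guide nor the number of clones behind the KO libraries and do not tie each library to a culture of its own. The p-values below therefore reflect the spread of these 4 libraries alone, and that spread may be technical. If the KO libraries share a clone, clone and genotype cannot be told apart. The title of the study ties APE1 to urea cycle genes and to DNA G-quadruplexes.

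APEX1 encodes APE1, the main endonuclease that cuts DNA at abasic sites in base excision repair, and a redox partner of several transcription factors. Cells of epithelial origin are held together by E-cadherin junctions, tight junctions and desmosomes, and carry a programme of epithelial splicing and transcription factors. In an epithelial-mesenchymal transition, cells lose that programme and make matrix, matrix-remodelling enzymes and an intermediate filament network rich in vimentin. Lung adenocarcinomas can also express genes of the gut and liver, organs that share an origin in the foregut endoderm with the lung.

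Poly(A) RNA gave 20754740 to 30219850 counts per library, and 16626 of 28281 genes had enough counts to be tested. Values are TMM-scaled CPM, which are counts set against library size, given as the WT mean and then the KO mean of 2 libraries each, and are not per length. "Rose" and "fell" mean a Benjamini-Hochberg adjusted p under 0.05 in the quasi-likelihood test of edgeR. Log2 fold changes are KO over WT. In all, 5522 genes rose and 5642 fell, which is 33.2% and 33.9% of the tested genes, or 67.1% in either direction. At least 2-fold changes were fewer, 1680 higher (10.1%) and 1873 lower (11.3%), together 21.4%. For 13714 genes (82.5%) the 2 WT and 2 KO libraries did not overlap. The median log2 fold change of all tested genes was -0.01 and the median absolute value was 0.43. Libraries of 1 group were close, with Pearson correlations of 0.992 across genes on the log2 scale, against 0.896 to 0.897 between genotypes. The first principal component held 92.7% of the variance and separated the genotypes. The genes that rose at least 2-fold took 2.59% and 2.54% of the WT counts and 7.49% and 7.48% of the KO counts. Those that fell at least 2-fold took 7.72% and 7.70% of the WT counts and 2.09% and 2.1% of the KO counts. Over the pairs of libraries behind each named gene and group with a mean of at least 10 CPM, the 2 values differed by a median of 3.37%.

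**Figure D1:**
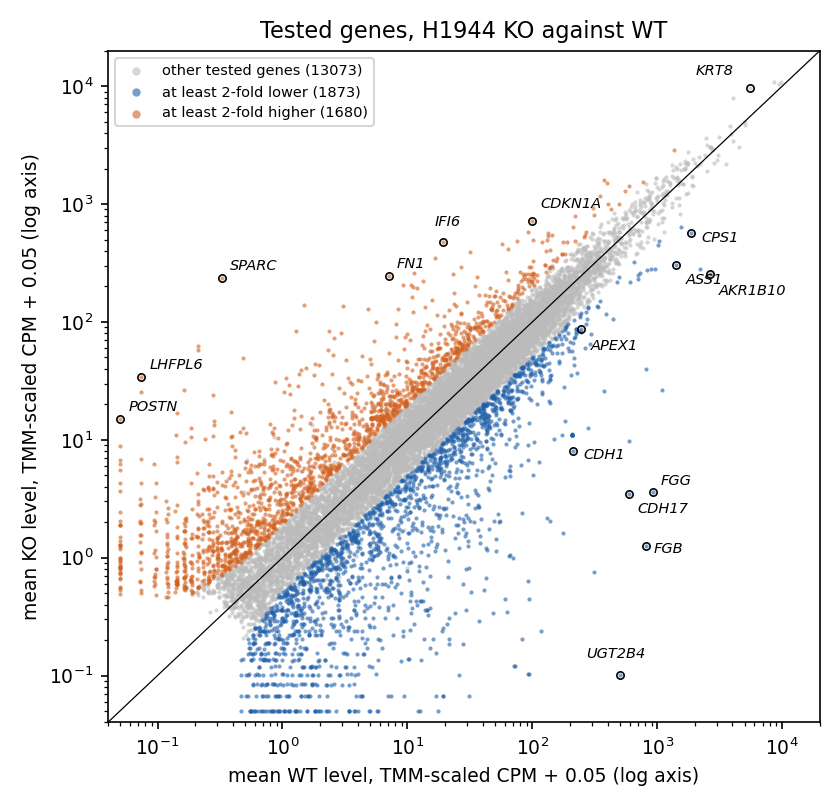
Mean level of each of the 16626 tested genes in the 2 WT libraries (horizontal, CPM plus 0.05, log axis) and in the 2 KO libraries (vertical, same scale). The 1680 genes at least 2-fold higher and the 1873 at least 2-fold lower are coloured, and SPARC, POSTN and LHFPL6 lie far above the diagonal while UGT2B4, FGB and CDH17 lie far below it.

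APEX1 itself was measured first. It stood at 244 and 243 CPM in the WT libraries and 87 and 87.6 CPM in the KO libraries, so the groups did not overlap (log2 fold change -1.48, SE 0.037, edgeR adjusted p 6.4e-19). The remaining KO reads show that APEX1 mRNA was lower but not absent; a deletion or frameshift can leave mRNA, so the level checks the labels only in direction. The genes OSGEP and PIP4P1, chosen after their values were seen as neighbours of APEX1 on chromosome 14, rose slightly (0.35 and 0.32). In GRCh38.p14, RefSeq places APEX1 at chr14:20455226-20457767.

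Both large enzymes of the urea cycle fell. CPS1 (chr2:210477685-210679107), the mitochondrial carbamoyl phosphate synthetase that opens the cycle, had 1855 and 1854 CPM in the WT libraries and 558 and 572 CPM in the KO libraries (log2 -1.71, SE 0.03, edgeR adjusted p 1.1e-21). ASS1 (chr9:130444707-130501274), which joins citrulline to aspartate, had 1409 and 1401 CPM in the WT libraries and 305 and 299 CPM in the KO libraries (log2 -2.22, SE 0.031, edgeR adjusted p 2.8e-23). For both genes every KO library lay below every WT library. The study names the urea cycle, so these directions are not independent evidence.

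The markers of cell identity moved further than the enzymes. CDH1 (chr16:68737292-68835537), E-cadherin, stood at 211 and 211 CPM in the WT libraries and 7.82 and 8.21 CPM in the KO libraries (log2 -4.72, SE 0.054, edgeR adjusted p 6.7e-25). SPARC (chr5:151661096-151686915), a collagen-binding matrix glycoprotein, stood at 0.221 and 0.334 CPM in the WT libraries and 233 and 237 CPM in the KO libraries (log2 9.71, SE 0.097, edgeR adjusted p 7.6e-26). SPARC was nearly silent in WT and the groups of neither gene overlapped. IFI6 (chr1:27666064-27672192), an interferon-induced protein of mitochondria and endoplasmic reticulum, stood at 19.1 and 19.2 CPM in the WT libraries and 471 and 475 CPM in the KO libraries (log2 4.63, SE 0.045, edgeR adjusted p 4.4e-26). CDKN1A (chr6:36676463-36687332), the p21 inhibitor of cyclin-dependent kinases, stood at 103 and 97 CPM in the WT libraries and 730.2 and 719 CPM in the KO libraries (log2 2.86, SE 0.038, edgeR adjusted p 7.9e-24). Both were higher in each KO library than in each WT library.

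**Figure D2:**
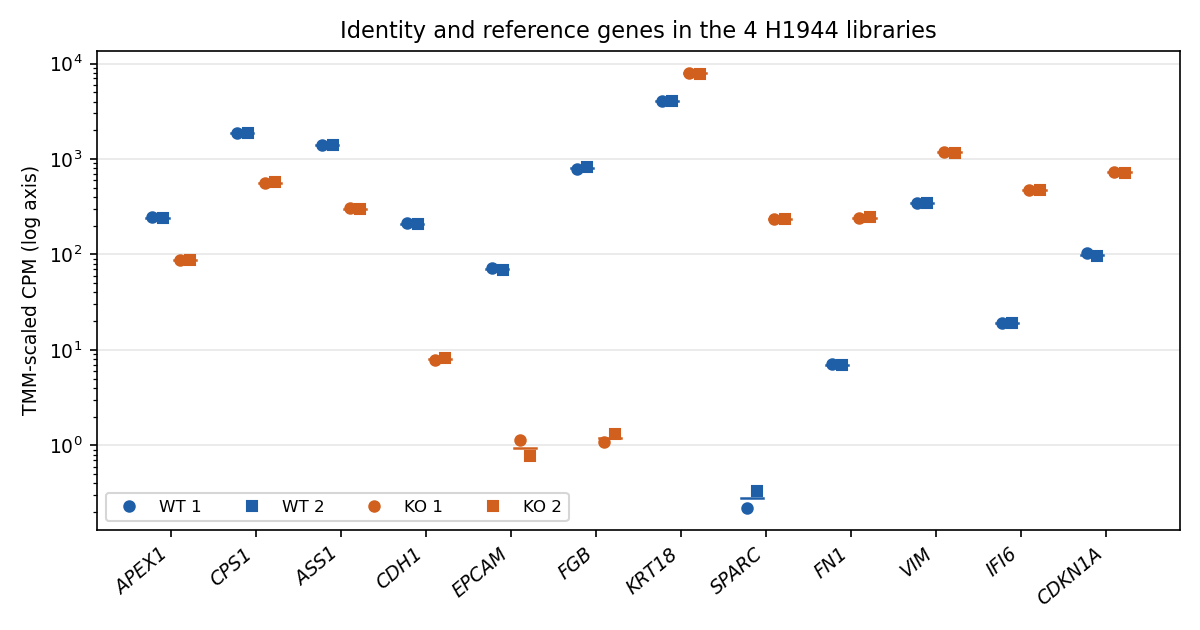
Level of 12 genes in each of the 4 libraries, in CPM on a log axis, with circles and squares for replicates 1 and 2 and a short line at each group mean. WT and KO do not overlap for any of the 12 genes: APEX1, CPS1, ASS1, CDH1, EPCAM and FGB are lower in KO, and KRT18, SPARC, FN1, VIM, IFI6 and CDKN1A are higher.

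The lung adenocarcinoma label was checked against lineage genes in all 4 libraries. NKX2-1, the transcription factor that defines most of the lung epithelium, had 0 counts in each library, and SFTPC, a surfactant protein of alveolar cells, had 3 and 4 counts in WT and 0 and 0 in KO. A count of 0 allows up to 0.101 to 0.143 CPM, depending on the library. CDKN2A and CDKN2B, neighbouring cell cycle inhibitors chosen after their values were seen, had 0 counts in all 4 libraries, so both groups share that feature. The simple-epithelial keratins KRT8 and KRT18 were abundant in both groups and rose, from 5544 to 9748 CPM and from 4032 to 7936 CPM. Of 8 tested alveolar and airway markers 5 fell at least 2-fold, beside 11.3% of all tested genes. Among them were HOPX (from 42.2 to 1.17 CPM), SFTPD (from 25.4 to 1.58 CPM) and NAPSA (from 9.11 to 0.86 CPM). CAV1, of the same list, rose (log2 0.31), and 2 members did not pass. Both groups thus had epithelial keratins and no NKX2-1 count.

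Markers of other cell types ranged from 0 counts to levels well above detection. Of 12 endothelial markers 1 was tested and it did not pass. Of 14 leukocyte markers 5 were tested, with CD68 (from 27.6 to 53.3 CPM), a lysosomal protein that is not limited to leukocytes, and LAPTM5 (from 0.162 to 1.45 CPM) higher and CORO1A (from 4.21 to 2.77 CPM) lower. CD3D and CD3E had 0 counts in all libraries, and PTPRC, the pan-leukocyte antigen CD45, had 5 and 9 counts in WT and 0 and 0 in KO. Of 12 fibroblast markers 7 were tested, of which 4 rose and 1 fell; COL3A1 (from 0.179 to 2.31 CPM) and POSTN were among those that rose, while COL1A1 (from 10.1 to 5.87 CPM) fell. COL1A2 had 3 and 7 counts in WT and 0 and 0 in KO, PDGFRA had 3 and 3 counts in WT and 0 and 0 in KO, and DPT had 0 counts in all libraries. The summed level of the fibroblast list was 16.9 and 15.5 CPM in WT and 29.4 and 31.8 CPM in KO. The part of other cells in the rises of matrix genes below was not tested. In bulk RNA, fewer cells of a type and less RNA per cell cannot be told apart.

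Genes of epithelial junctions fell broadly. Of 34 tested members 3 rose (2 at least 2-fold) and 29 fell (23 at least 2-fold), and the median log2 fold change was -1.58. Besides CDH1, members that fell included EPCAM (from 70.2 to 0.949 CPM), an epithelial adhesion molecule, CLDN4 (from 93.9 to 13.9 CPM), a claudin of tight junctions, and MARVELD3 (from 6.19 to 0.121 CPM), a tight junction membrane protein. GJB1, a gap junction connexin, had 420 and 423 counts in WT and 0 and 1 in KO, a ratio of WT over KO of 1127 (95% interval 202 to 44565). Desmosomes were affected unevenly, since DSG2 fell from 187 to 71.1 CPM while DSP, the plakin that anchors keratin, fell only from 130.2 to 108 CPM. Among 12 tested genes with claudin symbols 1 rose and 11 fell, and among 13 with cadherin symbols 1 rose and 8 fell.

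The regulators of the epithelial programme had a lower median still. Of 24 tested, 3 rose (1 at least 2-fold) and 20 fell (18 at least 2-fold) (median -2.95). MAL2, a transport protein of the apical membrane, stood at 307 and 316 CPM in the WT libraries and 0.634 and 0.771 CPM in the KO libraries. ESRP1, the splicing factor that sets epithelial exon choice, went from 10.3 to 0.0872 CPM, and the transcription factor SPDEF from 7.58 to 0.171 CPM. OVOL2, a repressor of mesenchymal genes, went from 3.31 to 0.207 CPM. The KO libraries lay below the WT libraries for each of these 4 genes. Some members kept much of their level: KLF5 fell from 230.1 to 156 CPM and SPINT2 from 559.5 to 426 CPM.

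Mucous and secretory genes followed. Of 24 tested, 6 rose (2 at least 2-fold) and 16 fell (15 at least 2-fold) (median -2.37). The gel-forming mucins MUC5B and MUC5AC fell from 176 to 1.55 CPM and from 20.1 to 1.1 CPM. AGR2, a disulfide isomerase that folds mucins, had 1549 and 1540 counts in WT and 3 and 1 in KO and went from 71 to 0.0696 CPM. CEACAM6 fell from 138 to 1.98 CPM, while its relative CEACAM5 had no KO counts and was at least 117-fold lower. LCN2, a siderophore-binding protein, fell from 51.2 to 1.1 CPM. GCNT3, a mucin glycosyltransferase, rose from 68 to 84.9 CPM. Among keratins the pattern was split, with KRT80 (217 to 73.3 CPM), KRT15 (5.88 to 1.53 CPM) and KRT6A (4.5 to 0.258 CPM) lower and KRT81 (34.4 to 67.1 CPM) higher beside KRT8 and KRT18.

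Of the liver-type plasma protein genes, more fell than rose. The 3 chains of fibrinogen, made by hepatocytes, were among the most abundant messages lost: FGG stood at 896 and 945 CPM in the WT libraries and 3.49 and 3.69 CPM in the KO libraries, FGB at 787 and 825 CPM in the WT libraries and 1.09 and 1.31 CPM in the KO libraries and FGA at 582 and 617 CPM in the WT libraries and 8.94 and 10.3 CPM in the KO libraries. None of these levels overlapped between the groups. Of 34 tested plasma protein genes, 8 rose (7 at least 2-fold) and 22 fell (20 at least 2-fold) (median -1.51). FGL1, a secreted fibrinogen relative, fell from 94.3 to 0.398 CPM and F2, prothrombin, from 4.67 to 0.12 CPM. VTN, vitronectin, went the other way, from 3.15 to 47.1 CPM. Of 22 complement genes 10 fell and 1 rose. Among those that fell were CFI (from 202 to 35.5 CPM) and C5 (from 46.2 to 4.41 CPM), while C1S fell less, from 1124 to 582 CPM, and the membrane inhibitor CD59 rose from 133 to 533 CPM. Outside these lists, CDH17, a cadherin of the intestinal and liver lineage, fell from 597 to 3.41 CPM, while TMPRSS15, the enteropeptidase of the gut brush border, had 1591 and 1552 counts in WT and 4 and 0 in KO.

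Transcription factors of foregut and liver fell in most cases. Of 25 tested, 3 rose (2 at least 2-fold) and 17 fell (12 at least 2-fold) (median -0.89, or -0.58 with no low-count filter). The liver factors NR1H4 and NR5A2 fell from 21.6 to 0.137 CPM and 7.29 to 0.568 CPM. FOXA1, a pioneer factor of endoderm, fell from 50.1 to 23.8 CPM and CEBPA from 36.4 to 24.4 CPM. IRX4 had no KO counts and was at least 169-fold lower. TBX2, a T-box repressor, rose from 1.6 to 13.9 CPM.

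Detoxification genes moved unevenly. Of 53 tested, 10 rose (3 at least 2-fold) and 31 fell (24 at least 2-fold) (median -0.44, or -1.20 with no low-count filter). Genes with UGT symbols include the enzymes that attach glucuronic acid to bilirubin, hormones and drugs. Among 17 tested, 16 fell, all at least 2-fold, and none rose. UGT2B4 had 11056 and 10727 counts in WT and 2 and 1 in KO, a ratio of WT over KO of 9707 (95% interval 3321 to 47074). UGT1A6 fell from 279 to 12.6 CPM and UGT1A1 from 209 to 11 CPM. UGT1A genes share their last exons, so their separate levels are uncertain and their falls are not independent observations in the count of 16. The alcohol dehydrogenase ADH6 fell from 48.4 to 0.29 CPM. The glutathione enzymes MGST1 and GSTP1 stayed abundant: GSTP1 fell from 829 to 636 CPM, and MGST1 was 905 to 882 CPM and did not pass, except under library-size scaling (edgeR adjusted p 0.0123) and without WT 1 (0.0491). CYP24A1, the vitamin D hydroxylase, rose from 816 to 1467 CPM.

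The targets of NRF2, the transcription factor of the oxidative stress response, did not move as 1 group. Of 36 tested, 9 rose (2 at least 2-fold) and 22 fell (6 at least 2-fold) (median -0.24). Several lost much of their level: GPX2, an epithelial glutathione peroxidase, fell from 814 to 40.2 CPM, AKR1B10, an aldo-keto reductase, from 2646 to 253 CPM, and GSR, glutathione reductase, from 897 to 280.2 CPM. AKR1C1 and AKR1C3 fell less, from 3529 to 2178 CPM and 1534 to 829 CPM. NQO1, a quinone reductase, rose from 1368 to 2893 CPM and AKR1B1 from 553 to 1281 CPM. TXNRD1 changed by only -0.23 on the log2 scale and fell, from 4023 to 3419.7 CPM.

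Mesenchymal and matrix genes rose. POSTN, the matrix protein periostin, had 0 and 0 counts in WT and 421 and 450 in KO and was at least 108-fold higher in KO. FN1, fibronectin, stood at 7.17 and 6.87 CPM in the WT libraries and 239 and 249 CPM in the KO libraries, and the groups did not overlap. VIM, vimentin, stood at 347 and 345 CPM in the WT libraries and 1185 and 1162 CPM in the KO libraries. Of 48 laminins and matricellular proteins tested, 31 rose (24 at least 2-fold) and 12 fell (6 at least 2-fold) (median 0.92). MFAP5, a microfibril protein, rose from 1.24 to 84.4 CPM and LAMA1, a laminin chain, from 0.233 to 14.4 CPM. The TGF-beta-induced matrix protein TGFBI rose from 306 to 928 CPM. IGFBP3, an insulin-like growth factor binding protein, fell from 696 to 248 CPM.

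Collagens were mixed, while the enzymes that process them rose in most cases. Of 24 collagens tested, 11 rose (8 at least 2-fold) and 8 fell (5 at least 2-fold) (median 0.56). Over all tested genes 33.2% rose and 33.9% fell, so the falls among collagens were near the general share. COL1A1 (log2 -0.78) was a collagen that fell. COL5A1, COL6A1 and COL6A2 rose from 0.431 to 12.6 CPM, 11 to 121 CPM and 8.34 to 129 CPM, and COL18A1 from 45.1 to 166 CPM. Of 23 cross-linking and processing enzymes tested, 16 rose (12 at least 2-fold) and 2 fell (0 at least 2-fold) (median 1.27). PLOD2, a lysyl hydroxylase, stood at 55.8 and 57.6 CPM in the WT libraries and 449.6 and 459 CPM in the KO libraries. LOXL2, a lysyl oxidase, rose from 9.9 to 79.1 CPM, and TGM2, a transglutaminase, from 312 to 814 CPM. Of 29 proteases and inhibitors tested, 20 rose (15 at least 2-fold) and 6 fell (3 at least 2-fold) (median 1.17). The gelatinase MMP2 rose from 11.2 to 261 CPM, the membrane-bound MMP16 from 1.02 to 33.1 CPM, and PLAU, the urokinase activator of plasminogen, from 64.4 to 416 CPM. MMP7, a metalloproteinase of glandular epithelium, fell from 3.14 to 0.0679 CPM.

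Integrins and other matrix receptors moved in both directions. Of 26 tested, 14 rose (9 at least 2-fold) and 6 fell (3 at least 2-fold) (median 0.27). ITGB3 had 0 and 1 counts in WT and 107 and 143 in KO, a ratio of KO over WT of 187 (95% interval 33.3 to 7415), and ITGB5 rose from 41.7 to 168 CPM. ITGB6, the integrin chain of epithelia, fell from 30.5 to 1.22 CPM. CD44, the hyaluronan receptor, rose from 101 to 326 CPM and ITGA3 from 139 to 408 CPM. Of 36 mesenchymal cytoskeleton and adhesion genes tested, 29 rose (18 at least 2-fold) and 5 fell (2 at least 2-fold) (median 0.99). They included the filamin FLNA (975 to 1659.6 CPM), the neural adhesion molecule L1CAM (8.45 to 36 CPM) and EPB41L3 (0.16 to 62.2 CPM), a linker of membrane and actin, all higher, and TNS1 (38.7 to 2.07 CPM), a focal adhesion protein, lower.

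Transcription factors known to drive an epithelial-mesenchymal transition (EMT) rose in part. Of 25 tested, 16 rose (12 at least 2-fold) and 7 fell (3 at least 2-fold) (median 0.95). TWIST1 stood at 0.664 and 0.667 CPM in the WT libraries and 6.83 and 6.17 CPM in the KO libraries and TWIST2 at 4.16 and 3.81 CPM in the WT libraries and 30.4 and 34.1 CPM in the KO libraries. SNAI2 rose from 1.77 to 6.36 CPM and ZEB2 from 0.736 to 3.1 CPM, to low levels in both cases. FOXC2 fell from 6.39 to 1.25 CPM and FOXC1 from 146 to 63.9 CPM. The ETS factors ETV4 and ETV5 rose from 20.3 to 53.2 CPM and 33.9 to 65.5 CPM.

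**Figure D3:**
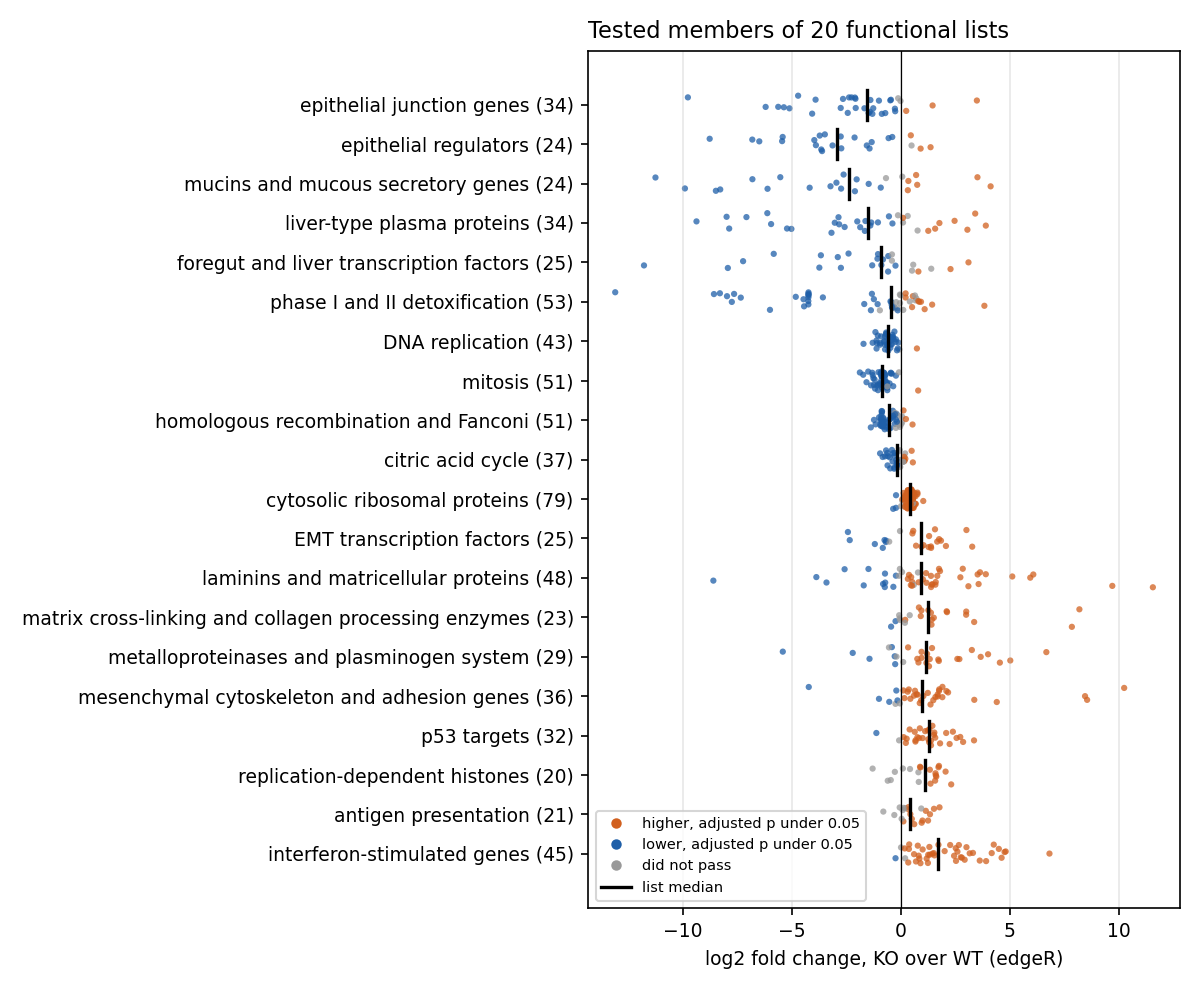
Log2 fold change (KO over WT) of the tested members of 20 functional lists, 1 point per gene, with the list median as a black bar and the number of tested members in parentheses. Medians run from -2.95 for epithelial regulators to 1.73 for interferon-stimulated genes. Most mitosis and DNA replication genes lie below 0, with ranges of -1.88 to 0.80 and -1.71 to 0.74. Most cytosolic ribosomal proteins lie above 0, with a range of -0.35 to 1.03.

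Some genes were switched rather than shifted. Counting genes under 0.5 CPM in both libraries of one group and over 5 CPM in both of the other, 33 were on only in KO and 72 only in WT. Of the 33, 28 were protein-coding, and of the 72, 66. The genes on in KO by this count included LHFPL6, a tetraspan membrane protein, with 0 and 1 counts in WT and 984 and 998 in KO and a ratio of KO over WT of 1483 (95% interval 266 to 58588). IGFL2, a secreted growth factor-like protein, had a ratio of 1110.1 (95% interval 199 to 43874). MARCHF4, a membrane ubiquitin ligase (0.16 to 58.2 CPM), PLCB2, a phospholipase (0.114 to 26.3 CPM), and ADAM19, a membrane protease (0.227 to 24 CPM), were also in this set. The genes on in WT included NPY1R, a neuropeptide Y receptor (117 to 0.19 CPM), DDC, the decarboxylase that makes dopamine and serotonin (60.6 to 0.394 CPM), and ERBB4, a receptor tyrosine kinase (12.7 to 0.0863 CPM). FXYD2, a regulator of the sodium pump, had 2191 and 1900 counts in WT and 3 and 0 in KO, but FXYD6-FXYD2 overlaps it, so its own level is uncertain.

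Interferon-stimulated genes rose almost throughout. Of 45 tested, 42 rose (32 at least 2-fold) and 1 fell (0 at least 2-fold) (median 1.73), and the summed level of the list was 1464 and 1483 CPM in WT and 4742 and 4749 CPM in KO. Beside IFI6, the antiviral GTPase MX1 stood at 11.5 and 9.87 CPM in the WT libraries and 205 and 206 CPM in the KO libraries. OAS2, which makes the activator of RNase L, rose from 2.87 to 81 CPM and TRIM22 from 1.32 to 36.2 CPM. WT and KO libraries did not overlap for these genes. Of 21 antigen presentation genes tested, 13 rose (5 at least 2-fold) and 0 fell (0 at least 2-fold) (median 0.44, or 0.23 with each gene set against the median of its window of 50 neighbours, described below). NLRC5, the activator of MHC class I genes, rose from 5.09 to 17.5 CPM and B2M, the class I light chain, from 77.3 to 196 CPM. HLA-B and HLA-C rose from 39.2 to 113 CPM and 144 to 287 CPM, although the reads of these similar genes may have been split between them, and HLA-C did not pass without the low-count filter (edgeR adjusted p 0.0568). Of 21 checkpoint and NK cell ligands tested, 15 rose (6 at least 2-fold) and 2 fell (1 at least 2-fold), with NECTIN2 from 51.5 to 182 CPM and RAET1G from 2.35 to 18.3 CPM.

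Promoters of the interferon list were read from RefSeq sequence (GRCh38.p14, 250 bases before to 50 after the start) because many members moved together. The core of the interferon-stimulated response element, a pair of GAAA blocks with any 2 bases between them on either strand, was present in 22 of 34 members with a promoter in the table, or 64.7%, against 2.88% of the 12516 tested genes with a promoter and 3.65% of all 27195 promoters. The motif was chosen after the values were seen, as an element known for genes of this kind. Its share therefore describes the list and not the rise in KO, and a match describes letters only. Examples are shown with the motif in capitals, on the strand of the gene; IFI6 at chr1:27672327-27672360, minus strand, ISG15 at chr1:1013372-1013411, plus strand, IFIT1 at chr10:89392495-89392541, plus strand, and BST2 at chr19:17405733-17405772, minus strand.
IFI6: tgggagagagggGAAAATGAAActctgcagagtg
ISG15: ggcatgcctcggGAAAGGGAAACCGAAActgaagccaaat
IFIT1: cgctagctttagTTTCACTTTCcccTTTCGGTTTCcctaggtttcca
BST2: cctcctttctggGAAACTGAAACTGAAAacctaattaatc
ISG15, IFIT1 and BST2 each hold 2 matches and IFI6 holds 1. ISG15, a ubiquitin-like modifier, rose from 10.9 to 198 CPM, IFIT1, which binds foreign RNA caps, from 10.9 to 164 CPM, and BST2, the tether of budding virions, from 85 to 232 CPM.

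Targets of p53 rose while genes of DNA replication and mitosis fell. Of 32 p53 targets tested, 30 rose (19 at least 2-fold) and 1 fell (1 at least 2-fold) (median 1.28). MDM2, the ubiquitin ligase of p53, stood at 266 and 271 CPM in the WT libraries and 577 and 585 CPM in the KO libraries and BAX, a pore-forming inducer of apoptosis, at 108 and 99.8 CPM in the WT libraries and 257 and 255 CPM in the KO libraries. PLK2, a stress-induced kinase, rose from 36.3 to 241 CPM, TP53INP1 from 6.83 to 35.9 CPM, SPATA18, a regulator of mitochondrial quality, from 2.11 to 21.7 CPM, and GDF15, a secreted stress factor, from 21.3 to 126 CPM. TIGAR, a phosphatase that restrains glycolysis, rose from 19.5 to 92.1 CPM, and DDB2, a sensor of ultraviolet damage, from 26.9 to 80.6 CPM. The groups did not overlap for any of these.

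Of 43 replication genes tested, 1 rose (0 at least 2-fold) and 41 fell (7 at least 2-fold) (median -0.60). MCM4 and MCM7, subunits of the replicative helicase, fell from 474 to 218 CPM and 280.2 to 130.5 CPM, and POLA1, the primase-linked polymerase, from 54.3 to 22.1 CPM. PCNA, the sliding clamp, fell only from 304 to 277 CPM. Of 51 mitosis genes tested, 1 rose (0 at least 2-fold) and 48 fell (15 at least 2-fold) (median -0.86). The proliferation antigen MKI67 stood at 282 and 268 CPM in the WT libraries and 106 and 107 CPM in the KO libraries, and the spindle protein ASPM at 166 and 164 CPM in the WT libraries and 44.4 and 44.9 CPM in the KO libraries. ANLN, the cytokinesis scaffold, fell from 246 to 82.4 CPM and TOP2A, the mitotic topoisomerase, from 349 to 151 CPM. Of 51 homologous recombination and Fanconi genes tested, 3 rose (0 at least 2-fold) and 38 fell (3 at least 2-fold) (median -0.55). Among them were BRCA1 (from 58.4 to 26.2 CPM), RAD51AP1 (from 57.8 to 24.6 CPM) and the helicase WRN (from 50.4 to 19.4 CPM). MCM4 and WRN on chromosome 8, MCM7 on chromosome 7 and ASPM on chromosome 1 lie in lowered windows, described below. With each gene set against its own window, the replication list had a median of -0.51 and the homologous recombination list -0.47.

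Of 21 tested cell cycle inhibitors, G1 cyclins and their partners, 6 rose (2 at least 2-fold) and 13 fell (5 at least 2-fold). CCND1, cyclin D1, rose from 133 to 565 CPM, and CDKN2C, the p18 inhibitor, fell from 97.6 to 21.8 CPM. CDKN1B, the p27 inhibitor, fell from 122 to 52.7 CPM, opposite to CDKN1A. E2F7 and E2F8, repressors of the E2F programme, fell from 25.1 to 10.5 CPM and 28 to 9.13 CPM. Of 20 tested replication-dependent histone genes 12 rose (10 at least 2-fold) and 0 fell (0 at least 2-fold), with H2BC12 from 36.4 to 121 CPM and H2BC5 from 6.01 to 24.9 CPM. Among all 10 tested genes with H2BC symbols, listed or not, 7 rose (6 at least 2-fold) and 1 fell (1 at least 2-fold). Most histone messages of this kind end without a poly(A) tail and the libraries were poly(A)-selected, and near-identical histone copies share reads, so these levels are uncertain.

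The promoters of the mitosis list were examined in the same way. The letters TTTGAA, the core of the cell cycle homology region, were found on either strand in 29 of 44 mitosis promoters, or 65.9%, against 10.4% of tested genes and 15.4% of all 27195. This short motif was also chosen after the values were seen, as an element known for such genes. Its share likewise describes the list and not the fall in KO. Examples are MKI67 at chr10:128126435-128126482, minus strand, ANLN at chr7:36389824-36389859, plus strand, KIF11 at chr10:92593090-92593119, plus strand, and PRC1 at chr15:90994538-90994567, minus strand, with matches in capitals.
MKI67: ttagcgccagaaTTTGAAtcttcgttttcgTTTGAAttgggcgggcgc
ANLN: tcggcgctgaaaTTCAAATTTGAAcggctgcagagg
KIF11: ctctgtctctttTTCAAAttgaggcgccga
PRC1: cccgtggcgcggTTTGAAattttgcggggc
KIF11, a spindle motor, fell from 138 to 57.7 CPM and PRC1, the midzone bundler, from 148 to 80.1 CPM. For a p53 site without a spacer, searched on both strands as a pair of CATG cores with 6 bases between them, C being the third, 1 of 26 p53 target promoters held a match, 3.85% against 0.144% of tested genes and 0.210% of all promoters.

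Because the title of the study names G-quadruplexes, promoters were searched for 4 runs of at least 3 G, separated by 1 to 7 bases, on either strand. Of genes at least 2-fold higher with a promoter in the table, 41.1% of 1221 held a match. The share was 31.2% of 1271 genes at least 2-fold lower and 31.8% of 3928 genes that did not pass, against 33.4% of the 12516 tested genes with a promoter and 24.2% of all 27195 promoters. Median GC content was 65.0%, 62.0% and 63.7% in the 3 sets of tested genes. In the promoters of APEX1, ASS1, SPARC and IFI6 no match was found, and CDH1 was not in the table. The table holds 1 start per gene, which for CPS1 lies 115670 bases inside the gene; no match was found in that window, and the outer start was not searched. The starts used for CDKN1A, TENM3 and IRX4 also lie inside the gene, by 2251, 696350 and 234 bases. The promoter of CDKN1A (chr6:36678464-36678763, plus strand) held 1 match upstream of its start. It is printed with examples from the genes with the largest changes, capitals marking the matched stretch: MARCHF4 at chr2:216372484-216372530, minus strand, TENM3 at chr4:182143915-182143957, plus strand, and IRX4 at chr5:1887019-1887060, minus strand.
CDKN1A: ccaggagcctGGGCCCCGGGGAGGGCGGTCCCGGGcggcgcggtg
MARCHF4: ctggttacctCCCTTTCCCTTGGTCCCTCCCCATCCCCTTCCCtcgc
TENM3: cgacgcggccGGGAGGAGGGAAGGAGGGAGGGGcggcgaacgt
IRX4: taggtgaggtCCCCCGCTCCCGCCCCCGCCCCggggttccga
CDKN1A, MARCHF4 and TENM3 rose and IRX4 fell. Apart from CDKN1A, the examples were picked for a match among both rises and falls, so their directions carry no information. The search finds letters and says nothing of whether a quadruplex formed.

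Metabolic genes showed smaller and more selective changes. Beside CPS1 and ASS1, the cytosolic step ASL fell from 31.6 to 19.4 CPM and the aspartate carrier SLC25A13 from 49 to 30.2 CPM, while the ornithine carrier SLC25A15 rose from 38.6 to 52.7 CPM. In glycolysis 32 genes were tested and 17 rose (8 at least 2-fold) and 11 fell (1 at least 2-fold) (median 0.13, or 0.08 under library-size scaling). The share that fell was near the 33.9% of all tested genes. The glucose transporters SLC2A3 and SLC2A1 stood out: SLC2A3 at 17.1 and 16 CPM in the WT libraries and 348 and 356 CPM in the KO libraries and SLC2A1 at 223 and 214 CPM in the WT libraries and 806 and 791 CPM in the KO libraries. HK2, which traps glucose as its phosphate, rose from 10.3 to 32.8 CPM, and the highly expressed GAPDH from 8559.9 to 10771 CPM. Among 37 citric acid cycle genes 6 rose (0 at least 2-fold) and 21 fell (0 at least 2-fold) (median -0.18). MDH2 fell from 303 to 189.7 CPM and FH from 139 to 84.2 CPM. MDH2 and SLC25A13 lie in lowered windows of chromosome 7, described below. Of 27 cholesterol synthesis genes 8 rose (1 at least 2-fold) and 16 fell (0 at least 2-fold), with HMGCS1 from 553 to 366 CPM and the sterol carrier STARD4 from 79.7 to 263 CPM.

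Several single enzymes of amino acid and lipid handling fell by large amounts. HPD, which degrades tyrosine, stood at 2222 and 2184 CPM in the WT libraries and 277 and 284 CPM in the KO libraries, and ALDH2, the mitochondrial aldehyde dehydrogenase, fell from 958 to 281 CPM. NAMPT, the enzyme that salvages nicotinamide, fell from 1559 to 638 CPM. PPARGC1A, a coactivator of mitochondrial genes, fell from 45.7 to 7.75 CPM, and CPT1A, the gate of fatty acid oxidation, from 133 to 62 CPM. SCD5, a desaturase, rose from 1.19 to 18 CPM. The iron exporter SLC40A1 fell from 68.7 to 16.7 CPM. ASNS, asparagine synthetase, fell from 124 to 58.7 CPM, while ATF4, its transcriptional activator, was 783 to 809.5 CPM and did not pass, except under upper-quartile scaling (edgeR adjusted p 0.0311).

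The protein synthesis and degradation machinery changed by small steps. Of 79 cytosolic ribosomal protein genes 73 rose (1 at least 2-fold) and 3 fell (0 at least 2-fold) (median 0.41). Their summed level was 76344 and 79343 CPM in WT and 98756 and 97215 CPM in KO. RPS19 rose from 985 to 1672 CPM, while RPLP0 fell from 2825 to 2213 CPM. Pseudogene copies can take reads of ribosomal protein genes, so single values are uncertain. Of 34 proteasome subunits 22 rose (0 at least 2-fold) and 6 fell (0 at least 2-fold). Of 41 lysosome and autophagy genes 24 rose (7 at least 2-fold) and 11 fell (2 at least 2-fold), and the protease CTSB rose from 373 to 1612 CPM, CTSL from 145 to 548 CPM and PSAP, the saposin precursor, from 594 to 1415 CPM.

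Receptor tyrosine kinases fell more often than they rose. Of 36 receptor tyrosine kinases tested, 9 rose (5 at least 2-fold) and 20 fell (15 at least 2-fold) (median -0.45). ERBB3, a receptor for neuregulin, fell from 149 to 10.0 CPM and MET, the hepatocyte growth factor receptor, from 197 to 112 CPM. MET lies in a lowered window of chromosome 7, described below. AXL rose from 42.8 to 138 CPM and ROR2 from 0.506 to 5.32 CPM. EPHA3 had no KO counts and was at least 54.6-fold lower. Of 37 growth factors 18 rose (11 at least 2-fold) and 11 fell (6 at least 2-fold), with BDNF from 1.36 to 39.4 CPM, MDK, midkine, from 9.48 to 74.1 CPM and PDGFA from 138 to 32.7 CPM. In the WNT list, of 36 genes 14 rose (11 at least 2-fold) and 10 fell (7 at least 2-fold), beside 33.2% and 33.9% of all tested genes. The secreted antagonists DKK1 and DKK3 rose from 2.55 to 72.8 CPM and 0.344 to 8.83 CPM, and the receptor FZD10 fell from 66.3 to 1.01 CPM.

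Targets and feedback genes of 2 pathways rose more often than they fell. Of 42 genes of the ERK list 26 rose (10 at least 2-fold) and 9 fell (3 at least 2-fold) (median 0.45), including PHLDA1 (29.7 to 147 CPM), the AP-1 subunit FOSL1 (14.9 to 49.1 CPM) and the ERK phosphatase DUSP6 (22.4 to 59.2 CPM). Of 35 Hippo and YAP genes 23 rose (9 at least 2-fold) and 6 fell (2 at least 2-fold) (median 0.37), including ANKRD1 (0.228 to 10.7 CPM), the tissue factor gene F3 (29.9 to 91.4 CPM) and TEAD1 (147 to 336 CPM). In the BMP and TGF-beta list of 41 genes 18 rose (12 at least 2-fold) and 14 fell (6 at least 2-fold). Over all tested genes 33.2% rose and 33.9% fell, so the falls in this list were near the general share. The antagonist NOG rose from 0.511 to 6.1 CPM, and BMP5 and BMPR1B fell from 35.2 to 3.46 CPM and 22.8 to 2.94 CPM. These lists overlap the EMT and matrix lists in some members, TGFBI and AXL among them, so their counts are not independent.

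Neuronal genes moved in both directions. Of 13 neuroendocrine and neuronal markers tested, 6 rose (5 at least 2-fold) and 5 fell (5 at least 2-fold). Of 34 synaptic and neuronal adhesion genes 16 rose (14 at least 2-fold) and 12 fell (7 at least 2-fold). By comparison, 33.2% of all tested genes rose and 33.9% fell (10.1% and 11.3% at least 2-fold). The falls of any size in both lists were thus near the general share. CPLX2, a regulator of vesicle release, stood at 1111 and 1092 CPM in the WT libraries and 26.3 and 26 CPM in the KO libraries. TENM3, a neuronal adhesion protein, rose from 1.44 to 139 CPM and PTPRN, a protein of secretory granules, from 3.03 to 135 CPM. Of 32 cancer-testis antigens 18 rose (10 at least 2-fold) and 6 fell (6 at least 2-fold) (median 0.58, or 0.29 against the windows), with CTAG2 from 24.3 to 136 CPM and MAGEB2 from 28.1 to 0.55 CPM. Of 16 imprinted genes 10 rose (5 at least 2-fold) and 2 fell (0 at least 2-fold); PEG10 rose from 211 to 644 CPM. All 12 tested genes of the PCDHGA family, clustered protocadherins, rose at least 2-fold with a median of 1.49, but they share their last exons and their separate levels are uncertain.

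Neighbouring genes changed together in places. Of the genes placed on RefSeq, 254 rose and 432 fell by at least 10-fold in mean CPM. Runs of at least 4 neighbouring tested genes that all did so in 1 direction numbered 10, of which 8 were lower and 2 higher; this count was chosen after the values were seen. The longest held 11 genes of the overlapping UGT1A locus. A run of 10 on chromosome 4 held UGT2B4, UGT2A1 and SULT1E1, a sulfotransferase of estrogens, together with ENAM and JCHAIN. Another run on chromosome 4 held FGB, FGA, FGG and LRAT, and a run on chromosome 18 held the desmosomal cadherin genes DSC1, DSG4 and DSG3. The 2 runs that rose lay on chromosome 19, with the pregnancy-specific glycoprotein genes PSG1, PSG5 and PSG4 in 1 and IGFL4 and IGFL2 in the other. The PSG genes are near-identical copies and share reads.

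At a larger scale the changes were not spread evenly over the chromosomes. The 560 tested genes of chromosome 8 had a median of -0.57 on the log2 scale, with 374 lower and 69 higher. Chromosome 18 had -0.53 over 228 genes (141 lower, 39 higher) and chromosome 7 had -0.31 over 801 genes (400 lower, 166 higher). Chromosome 14, which carries APEX1, had 0.02, and chromosome 19 had 0.15. Over windows of 50 consecutive tested genes, all 11 windows of chromosome 8 had a median below 0, from -1.02 to -0.26. Of the windows in the genome, 20 had a median at least 0.5 below 0, of which 7 lay on chromosome 8, 5 on chromosome 7, 3 on chromosome 1, 2 each on chromosomes 12 and 18 and 1 on chromosome 4. Only 1 window had a median at least 0.5 above 0, the window on chromosome 5 with the PCDHG genes, at 0.90. The PCDHG genes share their last exons, so their rises are not independent observations in that median. The same windows differed between libraries of 1 group by -0.13 to 0.11 (WT 2 over WT 1) and by -0.07 to 0.16 (KO 2 over KO 1).

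The lowest of all windows, the 3rd along chromosome 8, had 42 genes lower, 4 higher and 4 that did not pass, and included PBK (from 142 to 35.5 CPM) and ESCO2 (from 29.8 to 6.02 CPM), both of the mitotic cell cycle. The windows of chromosome 8 also held genes of the identity lists. FGL1, CDH17, ESRP1 and MAL2 were among those that fell, and LOXL2 and TP53INP1 among those that rose. Other genes named above that fell lay in lowered windows as well, and not all of them are listed here. They included MET, MDH2, SLC25A13 and MCM7 on chromosome 7 (window medians -0.73, -0.66, -0.59 and -0.54). MCM4 on chromosome 8 (-0.72) and ASPM on chromosome 1 (-0.64) were also among them. WRN and GSR lay in the lowest window of chromosome 8. The part of the region in each fall was not tested. The lowest window of chromosome 4 had a median of -0.79 and held ADH6. The window on chromosome 12 that ends with HPD had a median of -0.50. Of 1589 tested genes on chromosomes 7, 8 and 18, 6.42% rose and 22.5% fell at least 2-fold. Over the other 14734 placed genes the shares were 10.5% and 10.0%. Set against the median of its own window, a list kept its direction for the largest shifts: epithelial regulators had -2.97, mitosis -0.80, p53 targets 1.25 and interferon-stimulated genes 1.93. DNA copy number was not measured here, and its part in the window medians was not tested.

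**Figure D4:**
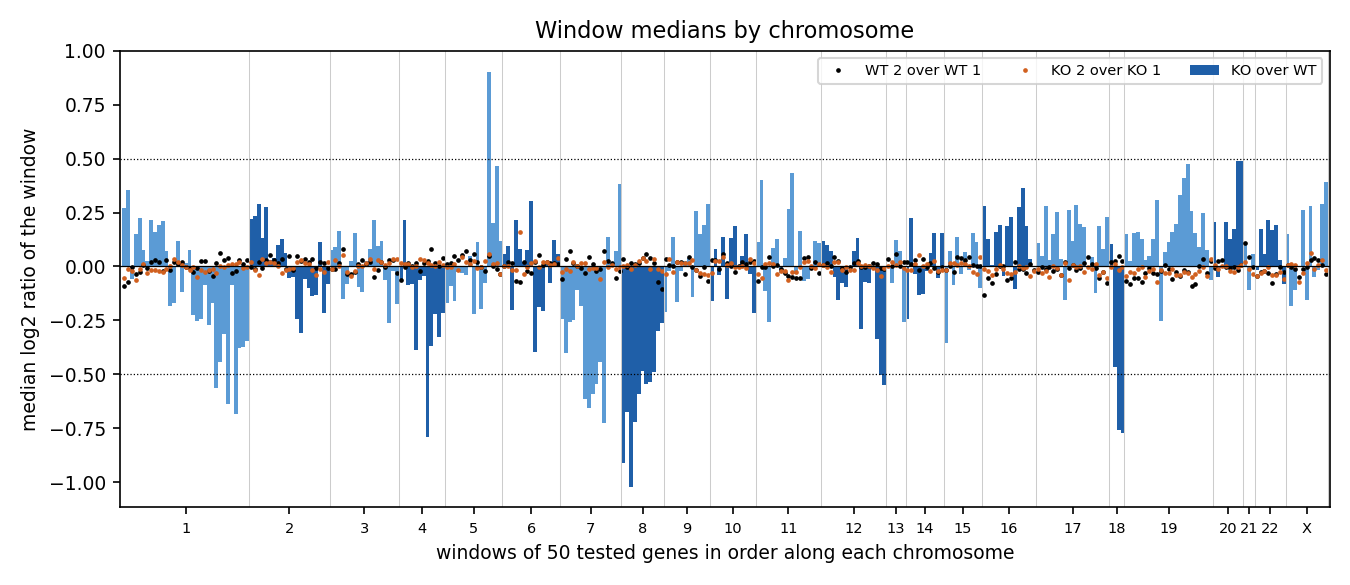
Median log2 ratio of each window of 50 consecutive tested genes, in order along chromosomes 1 to 22 and X, for KO over WT (bars), WT 2 over WT 1 (black points) and KO 2 over KO 1 (orange points), with dotted lines at 0.5 above and below 0. All 11 windows of chromosome 8 lie below 0, and the points of libraries of 1 group stay between -0.13 and 0.16.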

How the data were processed

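Per the submitters' processing notes, reads were trimmed with Trim Galore 0.5.0, aligned to hg38 with HISAT2 2.1.0 and counted with featureCounts 1.6.4, and DESeq2 was used. The authors deposited whole-number counts for each gene symbol, not normalized. Annotation, strand and the treatment of multiply aligned reads are not given in the sources used here, so overlapping, antisense and near-identical genes are uncertain. The 2 WT and 2 KO libraries of H1944 were filtered with filterByExpr (minimum count 10), scaled by TMM and compared by edgeR 4.0.16 under R 4.3.3, using its quasi-likelihood test with robust settings, at a Benjamini-Hochberg adjusted p under 0.05. All adjusted p-values are from edgeR unless another tool is named. Standard errors are approximate: the size of the log2 fold change divided by the root of the F statistic. A count of 0 was read as up to 3 counts per library, and ratios against 1 to 3 counts carry 95% exact binomial (Clopper-Pearson) intervals. Both reflect counting error alone, because without molecular identifiers several reads can stem from 1 molecule.

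In simulated data with 200 changed genes per draw, 59.3% of 1.5-fold changes were recovered, 78% of 2-fold changes and 93.6% of 4-fold changes. Of its calls 10.5% were unchanged genes, and 2.97% of its calls of at least 2-fold. Far fewer genes were changed there than the 67.1% called in the data, so these shares do not carry over to the comparison.

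Lists and members were chosen with earlier results of these data known, so lists are described by counts and medians, with no test of their own. Named genes are the 7 markers of the comparison, the 30 largest rises and falls, the 20 largest gains and losses in CPM, and members of each list, family or window by size and level; some are not reported here. Genes named by their position in a run, with a printed promoter, or as neighbours of APEX1 fall outside this rule and were chosen after their values were seen. Of 28281 symbols, 27631 matched a RefSeq gene (GRCh38.p14), 27044 by symbol and 587 by an older symbol. Alternatives were RLE, upper-quartile and library-size scaling, other filters, DESeq2 1.42.0, limma-voom (limma 3.58.1), a test against 1.5-fold, a replicate block and leaving out each library.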

Additional observations from a re-analysis of the deposited data

How the results depend on the processing

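Tested against a change of 1.5-fold rather than none, 1962 genes were higher and 2273 lower. Under every other alternative the 4 counts of genes stayed within 1.5 times their value. Without 1 library the counts ran from 5017 to 5334 higher, 5113 to 5341 lower, 1632 to 1698 at least 2-fold higher and 1785 to 1916 at least 2-fold lower. Replicate numbers did not pair the libraries (correlation of their deviations 0.0128 across genes), and a replicate block gave 5568, 5660, 1666 and 1861, with HLA-C no longer passing (adjusted p 0.138). None of the 3553 calls of at least 2-fold turned to the opposite call under any alternative, and 70.9% to 99.97% remained. The lowest share came with a minimum count of 50, which left fewer genes to test. The genes switched on and off numbered 63 and 111 with bounds of 1 and 5 CPM, and 92 and 161 with bounds of 0.5 and 2 CPM. Windows of 25 genes gave 16 medians at least 0.5 above 0 and 44 below, and windows of 100 genes gave 0 and 9. Loops of up to 12 bases raised the promoter shares to 54.7%, 46.4% and 47.4%, in the same order, against 49.5% of all tested genes.

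Few counts limit some named genes. Without 1 library the log2 fold change moved by over 0.585 for 18 of them. The moves reached 4.69 for PSG5, 3.85 for TMPRSS15, 3.46 for FXYD2, 2.94 for DSC1, 2.59 for LHFPL6, IGFL2 and ITGB3, 2.08 for GJB1, 1.84 for COL3A1 and 1.23 for ESRP1. CORO1A did not pass with DESeq2 (adjusted p 0.0865) or without WT 1 or KO 2 (0.102 and 0.0850). The cause of these shifts was not tested. Setting each gene against its own window, an alternative chosen after seeing the data, moved 22 list medians past their spread and changed the direction of none whose median is printed above.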

Other observations

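Groups of surface and signalling genes not described above moved in both directions, beside 33.2% of all tested genes that rose and 33.9% that fell. Of 57 ion channel genes tested 25 rose (22 at least 2-fold) and 19 fell (14 at least 2-fold); the potassium channel KCNJ16 fell from 92.8 to 0.579 CPM and the epithelial sodium channel subunit SCNN1A from 292 to 78.8 CPM. Of 63 G protein-coupled receptors 32 rose and 20 fell, and S1PR3, a sphingosine phosphate receptor, rose from 0.846 to 8.32 CPM. Of 44 axon guidance genes 21 rose and 16 fell, with SEMA5A from 25.8 to 0.052 CPM and PLXND1 from 45.9 to 148 CPM. The chemokine CXCL1 fell from 36 to 5.44 CPM while the cytokine IL18 rose from 129.8 to 400.2 CPM.

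Regulators of actin were also divided. Of 70 genes tested 28 rose and 29 fell, beside the same 33.2% and 33.9% of all tested genes. RHOB rose from 13.2 to 76 CPM, while the exchange factor VAV3 fell from 66.5 to 4.9 CPM and the endosomal motor MYO5B from 43.9 to 5.72 CPM. Among apoptosis genes BOK rose from 1.69 to 15.3 CPM and BIK fell from 9.93 to 1.29 CPM, both of the BCL2 family. Long noncoding RNAs made up 1455 of the tested genes, of which 11.9% rose and 16.4% fell at least 2-fold, beside 10.1% and 10.8% of 14005 protein-coding genes.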
